A study of Mus musculus with 12 samples.

Results

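Ionotropic and metabotropic receptors for glutamate and GABA were examined in RNA sequencing of mouse brain after photodynamic treatment. Receptor genes were taken by symbol from the deposited expression table: AMPA (Gria), delta (Grid), kainate (Grik), NMDA (Grin) and metabotropic (Grm) glutamate receptors, GABA-A subunits (Gabr) and GABA-B subunits (Gabbr). A scaffold gene that shares the first letters but is no receptor was left out. The rule took 48 of the 54532 genes in the table, of which 47 are protein coding and 1, Grin1os, is a non-coding RNA antisense to Grin1. By family these were 4 AMPA, 2 delta, 5 kainate, 8 NMDA (Grin1os included), 8 metabotropic, 19 GABA-A and 2 GABA-B genes.

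Per the labels, treated mice were given 5-aminolevulinic acid (5-ALA), a heme precursor that cells convert to the light-sensitive pigment protoporphyrin IX, at 20 mg/kg, and 30 min later 635 nm laser light at 20 J/cm2. Brain was collected 1.5 h, 12 h or 48 h afterwards, with 3 libraries per time. The 3 control libraries carry PBS in their titles and untreated as their treatment, and the labels do not state whether light or an injection was given. All mice were perfused with 0.9% NaCl. The strain is labelled both BALB/c and C57BL/6, and age, sex, brain region and hour of collection are not stated in the labels used here. The labels also do not say that each library is a separate mouse, so the p-values below measure the spread between libraries, which may be technical in part. A receptor is assembled from several subunits, so these are RNA levels of subunit genes and not receptor numbers.

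Glutamate is the main excitatory transmitter of the brain and GABA the main inhibitory one. AMPA, kainate and NMDA receptors are glutamate-gated cation channels, GABA-A receptors are GABA-gated chloride channels, and metabotropic glutamate and GABA-B receptors signal through G proteins. Which subunits a neuron makes sets the kinetics, the calcium entry and the place of its receptors, at the synapse or outside it.

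Values are FPKM, which the authors scaled for the length of each gene and the depth of each library, so that levels can be compared between genes. Numbers of reads recovered from the FPKM steps were 15348579 to 17444654 per library. Per-library values are given in the order 1, 2, 3 at 1.5 h, 1, 2 and the unnumbered library at 12 h, 1, 3, 4 at 48 h and 1, 2, 4 in controls. Differences are on the log2(FPKM + 1) scale with their standard error, which understates the change of genes near 1 FPKM, and were tested with limma over all 12 libraries with Benjamini-Hochberg adjustment over 17664 genes. A gene rose or fell where its adjusted p was under 0.05. Of the 48 receptor genes, 40 had more than 0.5 FPKM in at least 3 libraries and were tested, with 6 (Gabrr2) to 13468 (Gabbr1) reads behind a value. Libraries 1 and 3 at 1.5 h stood apart, with 12.4% and 9.14% mitochondrial reads against 4.16% to 6.14% in the other 10 libraries, and with lower values for longer genes. Relative to the control mean, their slopes on log2 gene length were -0.136 and -0.092. The slope was also below 0 at 12 h (-0.033 to -0.011) and 48 h (-0.041 to -0.021), against -0.005 to 0.009 in controls. Receptor genes are long: the 40 tested had a median length of 6672 bases, against 3516 bases over all genes tested. Relative to the control mean, the median of the 40 genes was -0.46, 0.06 and -0.33 in the 3 libraries at 1.5 h, -0.20, -0.25 and -0.42 at 12 h and -0.41, -0.56 and -0.35 at 48 h, against -0.01, 0.02 and -0.04 in controls. Every 12 h and 48 h library was thus below every control library, while library 2 at 1.5 h lay above the controls.

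**Figure D1:**
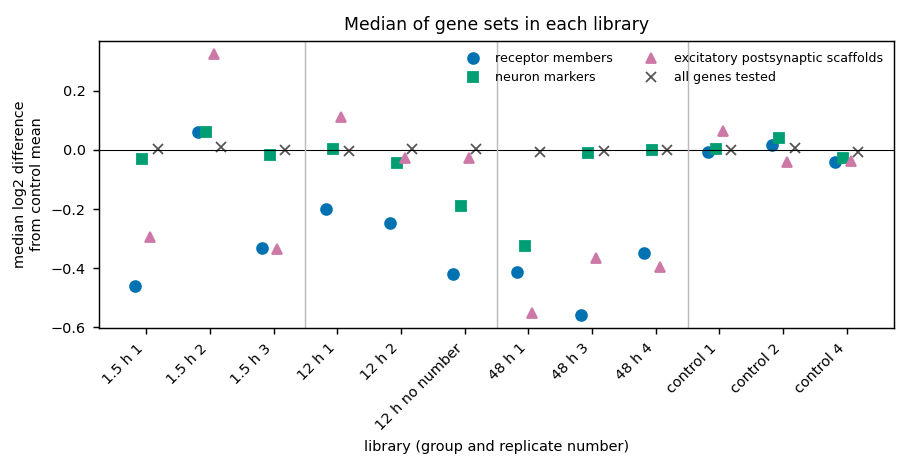
Each library's median difference from the control mean over the 40 receptor genes tested (circles; vertical axis, log2 scale), with neuron markers, postsynaptic scaffold genes and all genes tested as the other symbols. The circles of the 3 libraries at 12 h and the 3 at 48 h lie at -0.20 or lower, the 3 controls near 0, and the 1.5 h libraries on both sides.

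At 1.5 h none of the 40 receptor genes passed the test, where 0.555% of all genes did (0.419% rose and 0.136% fell). Without adjustment, 1 receptor gene was higher and 11 were lower at p under 0.05, where 3333 of all 17664 genes were higher and 2248 lower. The median difference of the 40 was -0.23, against 0.02 over all genes tested. The count rests on 1.5 h library 2: without it 2 receptor genes rose and 20 fell, while 8071 of all 17664 genes passed. The share of mitochondrial reads and the fall with gene length moved with this result, and whether they caused it was not tested. With a correction for the length trend the median was -0.09. Without 1.5 h libraries 1 and 3 only library 2 was left, so the median of 0.06 was that of this library alone.

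At 12 h, 7 of the 40 receptor genes fell and none rose, which is 17.5% falling where 21.2% of all genes changed (7.90% fell and 13.3% rose). Among them were Gria2, Grik2, Grm2, Grm3, Grm5 and Gabrb1. The median difference was -0.25, against 0.00 over all genes. At 12 h 20 receptor genes were below every control library and 1 was above. At 48 h, 11 of 40 fell and none rose, or 27.5%, where 12.5% of all genes changed (5.01% fell and 7.50% rose). These were Gria2, Gria3, Gria4, Grid1, Grik2, Grin2a, Grm2, Grm3, Grm5, Gabra4 and Gabrd. The median difference was -0.44, against 0.00 over all genes, and 28 receptor genes lay below every control and 1 above. How many of all genes were so placed at 12 h or 48 h was not counted, so these counts have no background. Both times share the same 3 control libraries. In brain homogenate a loss of cells of one type and less RNA per cell cannot be told apart. With each library scaled to the same total FPKM, the 12 h count was 3 (Grm2 and Grm3 among them) and the 48 h count was 1 (Gabrd). This ended the calls of Gria2, Grik2, Grm5 and Gabrb1 at 12 h and every call but Gabrd at 48 h. Over all 17664 genes, rises and falls together, 2698 changed at 12 h and 1478 at 48 h with this scaling. As reported, 3737 and 2209 did. The median difference of the receptor genes did not shrink with this scaling. It was -0.38 at 12 h and -0.49 at 48 h, against -0.10 and -0.04 over all genes. With the length trend corrected it was -0.24 at 12 h and -0.35 at 48 h, against -0.02 and -0.0008 over all genes. With no filter, over all 54532 genes, the counts were 5 and 6, without Gria2 and Grik2 at 12 h and without Gria2, Gria4, Grik2, Grin2a and Grm3 at 48 h. Of all genes 3487 and 1533 changed in that run. Leaving out 1 library, here and below always of the 2 groups compared, gave 5 at 12 h each time. At 48 h it gave 8 to 10 without a treated library and 6, 4 and 7 without control 1, 2 and 4. Of all genes 2293 to 2715 then changed at 12 h and 1206 to 1788 at 48 h.

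**Figure D2:**
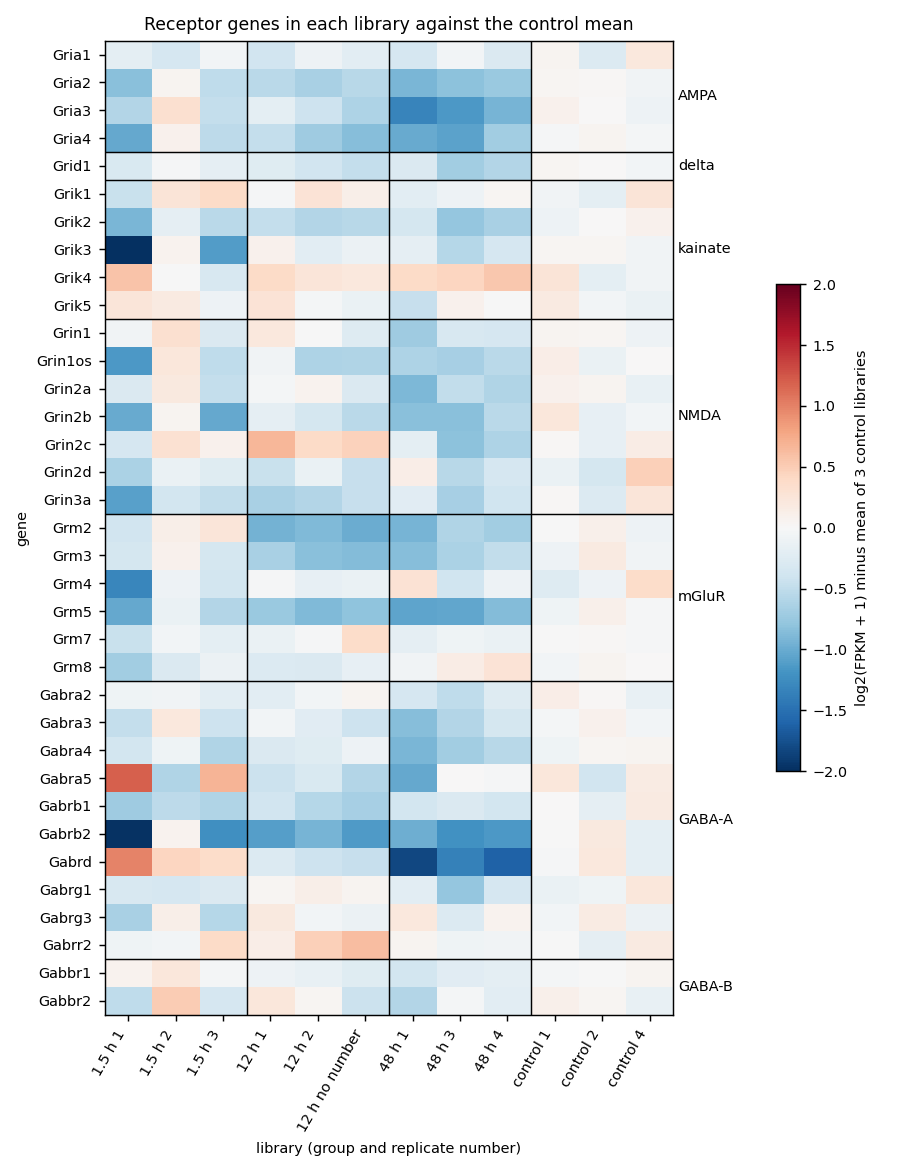
Difference of each library from the control mean for 35 of the 40 receptor genes tested, in rows by family and columns by library, on the log2(FPKM + 1) scale. Blue marks values below the control mean, which fill most rows in the 12 h and 48 h columns. The columns of 1.5 h libraries 1 and 3 are lower than that of library 2.

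**Figure D3:**
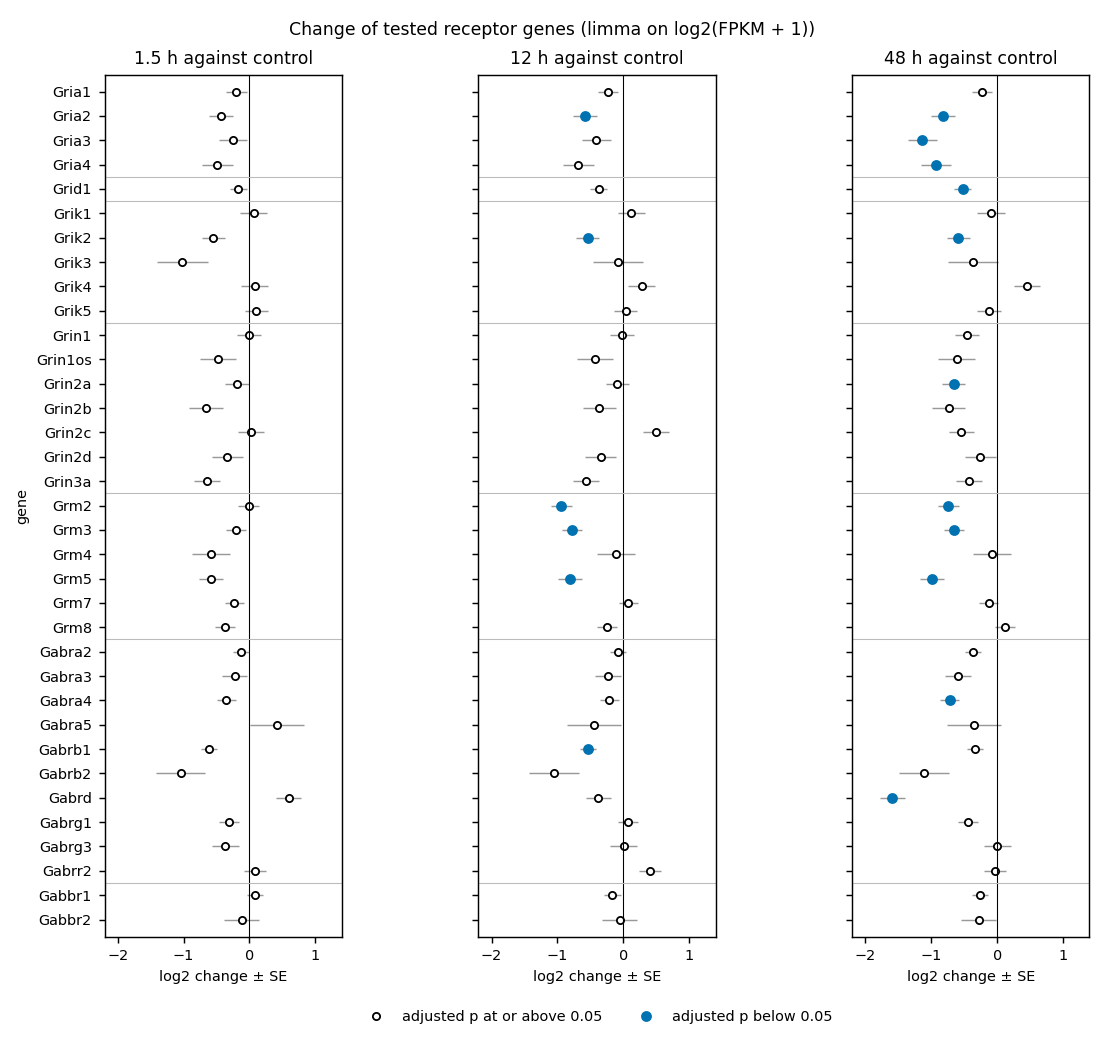
Log2 difference from control with its standard error for 35 of the 40 receptor genes tested at 1.5, 12 and 48 h. Filled points passed the test, and the 6 at 12 h and 11 at 48 h all lie left of 0.

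AMPA receptors carry most fast excitation, and Gria2 encodes GluA2, the subunit that, after RNA editing, makes the channel nearly impermeable to calcium. Of the 4 AMPA genes, Gria2 fell at 12 h, and Gria2, Gria3 and Gria4 fell at 48 h, while Gria1 (GluA1) passed at no time. Gria2 (ENSMUSG00000033981, chromosome 3, 80681450 to 80802835, minus strand, positions in GRCm38 throughout) had 21.5, 40.7 and 27.3 FPKM at 1.5 h, 26.6, 24.5 and 26.3 FPKM at 12 h and 20.3, 21.9 and 23.02 FPKM at 48 h, against 40.3, 39.95 and 37.3 FPKM in controls. All treated libraries but library 2 at 1.5 h were below the lowest control. Its difference was -0.58 ± 0.19 (adjusted p = 0.0454) at 12 h and -0.82 ± 0.19 (adjusted p = 0.0143) at 48 h. Gria3 (ENSMUSG00000001986, chromosome X, 41400854 to 41678601, plus strand), which encodes GluA3, had 12.8, 24.7 and 13.8 FPKM at 1.5 h, 17.1, 14.4 and 12.5 FPKM at 12 h and 7.23, 8.28 and 9.80 FPKM at 48 h, against 20.9, 19.8 and 18.3 FPKM in controls. It fell by 1.14 ± 0.22 at 48 h (adjusted p = 0.00609), with each 48 h library at 9.80 FPKM or less and no overlap. Gria4 (ENSMUSG00000025892, chromosome 9, 4417896 to 4796234, minus strand), encoding GluA4, had 8.51, 19.6 and 12.5 FPKM at 1.5 h, 12.9, 10.8 and 9.68 FPKM at 12 h and 8.62, 8.18 and 10.9 FPKM at 48 h, against 18.1, 19.2 and 17.9 FPKM in controls. Its difference was -0.68 ± 0.23 (adjusted p = 0.0591) at 12 h and -0.93 ± 0.23 (adjusted p = 0.0238) at 48 h, and at both times all 3 libraries were below the controls. Gria1 had 41.9, 38.05 and 46.3 FPKM at 1.5 h, 36.9, 44.7 and 41.4 FPKM at 12 h and 38.1, 46.3 and 39.3 FPKM at 48 h, against 50.3, 39.9 and 55.9 FPKM in controls. Its groups overlapped at each time, with differences of -0.20 ± 0.15 (adjusted p = 0.381), -0.23 ± 0.15 (adjusted p = 0.322) and -0.23 ± 0.15 (adjusted p = 0.392) at 1.5, 12 and 48 h.

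The summed level of the 4 AMPA genes was 103 ± 19.3 FPKM at 1.5 h, 92.6 ± 2.43 FPKM at 12 h and 80.7 ± 5.56 FPKM at 48 h, against 126 ± 6.13 FPKM in controls (SD, n = 3 each). The log2 ratio of Gria1 to Gria2 was 0.54 ± 0.56 at 1.5 h, 0.66 ± 0.20 at 12 h and 0.92 ± 0.16 at 48 h, against 0.30 ± 0.29 in controls. The 3 ratios at 48 h were above all control ratios, whereas those at 1.5 h and 12 h overlapped them. The Gria2 call at 12 h was lost when any 1 of its 6 libraries was left out (adjusted p = 0.0885 to 0.134), and its call at 48 h without control 1 (0.0576) or control 2 (0.0574). The Gria4 call at 48 h was lost without 48 h library 1 or 3 or any control (adjusted p = 0.0635 to 0.0858), and the Gria3 call at 48 h was kept each time.

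The window around the annotated start of Gria2, 250 bases before it to 50 after, is shown because Gria2 fell at both times, and that of Grin1 because it holds the E-boxes found in the windows searched. Sequences are from RefSeq (GRCm38.p6, 5′ to 3′ on the gene's strand), Gria2 at chr3:80802786-80803085, minus strand and Grin1 at chr2:25319138-25319437, minus strand; capitals mark its 2 E-boxes, CACGTG.
Gria2: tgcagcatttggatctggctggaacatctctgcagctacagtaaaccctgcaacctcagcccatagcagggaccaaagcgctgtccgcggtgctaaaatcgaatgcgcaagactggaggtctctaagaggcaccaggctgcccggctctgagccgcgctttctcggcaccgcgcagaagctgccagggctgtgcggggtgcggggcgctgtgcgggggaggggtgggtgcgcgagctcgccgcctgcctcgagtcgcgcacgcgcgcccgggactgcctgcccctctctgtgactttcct
Grin1: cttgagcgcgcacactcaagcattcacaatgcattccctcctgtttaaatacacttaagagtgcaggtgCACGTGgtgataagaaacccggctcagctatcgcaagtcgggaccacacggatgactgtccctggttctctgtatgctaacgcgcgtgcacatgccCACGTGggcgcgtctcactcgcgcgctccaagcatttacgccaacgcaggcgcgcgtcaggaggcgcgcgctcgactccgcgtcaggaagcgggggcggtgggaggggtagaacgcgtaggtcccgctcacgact
RefSeq windows were matched for 33 of the 48 genes (40 windows). They were searched on both strands for the cAMP response element TGACGTCA, the AP-1-like pattern TGANTCA, where N is any base, and the E-box. The cAMP response element was in no window of a receptor gene (1.79% of all 32851 windows). The AP-1-like pattern was in those of Grin3b and Grm8, as TGATTCA in both (7.81% of all windows held the pattern). The E-box, at bases 70 and 166, was in that of Grin1 (7.15% of all). No matches overlapped. Receptor windows had a median GC content of 59.3%, against 52.7% over all windows.

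NMDA receptors, which need glutamate together with glycine or D-serine and open only on a depolarized membrane, contain the obligatory GluN1 (Grin1) with GluN2 (Grin2a to Grin2d) or GluN3 (Grin3a, Grin3b) subunits. None of the 7 tested passed at 12 h and only Grin2a fell at 48 h. Grin2a (ENSMUSG00000059003, chromosome 16, 9567898 to 9995560, minus strand) had 6.15, 9.06 and 5.33 FPKM at 1.5 h, 7.51, 8.17 and 6.16 FPKM at 12 h and 3.72, 5.24 and 4.78 FPKM at 48 h, against 8.32, 8.11 and 6.92 FPKM in controls. Its 48 h libraries were below all controls, a difference of -0.66 ± 0.18 (adjusted p = 0.0350). That call was lost without 48 h library 1 or 4 or any control (adjusted p = 0.0580 to 0.123) and with the length trend corrected. Grin1 had 45.6, 60.1 and 38.7 FPKM at 1.5 h, 55.3, 47.4 and 39.8 FPKM at 12 h and 28.8, 37.9 and 37.5 FPKM at 48 h, against 49.6, 49.2 and 44.6 FPKM in controls. Its difference at 48 h was -0.46 ± 0.18 (adjusted p = 0.139) with all libraries below the controls, and its 1.5 h and 12 h values overlapped them. Grin2b had 4.65, 10.7 and 4.59 FPKM at 1.5 h, 9.02, 7.86 and 6.78 FPKM at 12 h and 5.38, 5.35 and 6.81 FPKM at 48 h, against 12.2, 9.16 and 9.89 FPKM in controls. This gene, the main partner of Grin1 before the postnatal rise of Grin2a, differed by -0.74 ± 0.25 (adjusted p = 0.0856) at 48 h, again with no overlap but not past the threshold. The log2 ratio of Grin2a to Grin2b was 0.13 ± 0.33 at 1.5 h, -0.12 ± 0.16 at 12 h and -0.36 ± 0.28 at 48 h, against -0.42 ± 0.21 in controls (SD, n = 3 each), and the ratios of each time overlapped those of controls. Of the less abundant subunits, Grin2d and Grin3a passed at no time, with differences between -0.65 and -0.25. Grin1os differed by -0.61 ± 0.28 (adjusted p = 0.190) at 48 h. Its gene body overlaps that of Grin1 over 7706 bases on the other strand. As the counting is not stated to use strand, reads in any bases counted for both genes cannot be told apart. Summed levels of the protein-coding NMDA genes (without Grin1os) were 76.2 ± 18.7 FPKM at 1.5 h, 81.7 ± 10.3 FPKM at 12 h and 56.9 ± 3.53 FPKM at 48 h, against 82.7 ± 3.47 FPKM in controls.

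Kainate receptors modulate release and excitability, and delta receptors act mainly as synaptic adhesion partners of cerebellins. In each of these 2 families 1 gene passed. Grik2 (ENSMUSG00000056073, chromosome 10, 49094833 to 49788766, minus strand), encoding GluK2, had 1.71, 3.48 and 2.49 FPKM at 1.5 h, 2.66, 2.38 and 2.48 FPKM at 12 h and 2.99, 1.97 and 2.25 FPKM at 48 h, against 3.76, 4.14 and 4.40 FPKM in controls. Every treated library was below the lowest control, and Grik2 fell by 0.54 ± 0.17 at 12 h (adjusted p = 0.0476) and by 0.59 ± 0.17 at 48 h (adjusted p = 0.0473). Both calls sat near the threshold: the first was lost without any 1 of the 6 libraries (adjusted p = 0.0876 to 0.133), the other without 48 h library 3 or 4 or any control (adjusted p = 0.0958 to 0.162), and both with a pseudocount of 0.1. Grik5, encoding the high-affinity subunit GluK5 and the most abundant kainate gene at 52.3 FPKM in controls, differed by 0.03 at 12 h and -0.13 at 48 h. Grik4, for GluK4, was the 1 receptor gene above all controls at 48 h, at 0.45 ± 0.20 (adjusted p = 0.180). Grik1 and Grik3 passed at no time. Grid1 (ENSMUSG00000041078, chromosome 14, 34820108 to 35583379, plus strand), encoding GluD1, had 8.12, 10.03 and 8.94 FPKM at 1.5 h, 8.48, 7.58 and 7.09 FPKM at 12 h and 8.23, 5.92 and 6.47 FPKM at 48 h, against 10.6, 10.3 and 9.89 FPKM in controls. All 12 h and 48 h libraries were below the controls, with differences of -0.37 ± 0.13 (adjusted p = 0.0644) and -0.53 ± 0.13 (adjusted p = 0.0220). The 48 h call was lost without 48 h library 3 or 4 or any control (adjusted p = 0.0562 to 0.0893).

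Among the 7 metabotropic glutamate receptors tested, Grm2, Grm3 and Grm5 fell at both 12 h and 48 h and the other 4 passed at neither time. Grm2 and Grm3 form the Gi-coupled group that dampens transmitter release, Grm3 being found in astrocytes too, and Grm5 is the Gq-coupled receptor tied by Homer proteins to the postsynaptic scaffold. Grm2 (ENSMUSG00000023192, chromosome 9, 106643095 to 106656082, minus strand) had 12.03, 17.3 and 19.1 FPKM at 1.5 h, 7.78, 8.18 and 7.51 FPKM at 12 h and 7.86, 10.2 and 9.48 FPKM at 48 h, against 15.9, 17.2 and 14.9 FPKM in controls. The 1.5 h values spread across those of controls while all 6 later libraries were lower, with differences of -0.94 ± 0.16 (adjusted p = 0.00186) at 12 h and -0.74 ± 0.16 (adjusted p = 0.0111) at 48 h. Its 12 h call was kept in every alternative run, and its 48 h call was lost without control 2 (adjusted p = 0.0552). Grm3 (ENSMUSG00000003974, chromosome 5, 9485541 to 9725170, minus strand) had 11.9, 16.5 and 11.9 FPKM at 1.5 h, 9.50, 8.25 and 8.09 FPKM at 12 h and 8.14, 9.62 and 10.7 FPKM at 48 h, against 14.3, 17.7 and 14.7 FPKM in controls. It too was below the controls in all 6 later libraries, at -0.78 ± 0.15 (adjusted p = 0.00442) and -0.66 ± 0.15 (adjusted p = 0.0165), and the 48 h call was lost without 48 h library 1 (0.0576) or control 2 (0.0817).

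Grm5 (ENSMUSG00000049583, chromosome 7, 87584168 to 88134907, plus strand) had 8.20, 16.03 and 11.5 FPKM at 1.5 h, 10.2, 9.21 and 9.67 FPKM at 12 h and 8.03, 8.09 and 9.29 FPKM at 48 h, against 16.7, 19.2 and 17.4 FPKM in controls. Each treated library at every time was below the lowest control, and Grm5 fell by 0.81 ± 0.18 at 12 h (adjusted p = 0.00980) and 0.99 ± 0.18 at 48 h (adjusted p = 0.00530), calls kept with any 1 library left out and lost with equal total FPKM (adjusted p = 0.0763 and 0.0780). The Gi-coupled release-controlling receptors of the last group differed less: Grm4 by -0.10 and -0.07, Grm7 by 0.07 and -0.13 and Grm8 by -0.24 and 0.12 at 12 h and 48 h. The summed metabotropic level was 59.1 ± 14.1 FPKM at 1.5 h, 48.5 ± 1.48 FPKM at 12 h and 48.9 ± 2.49 FPKM at 48 h, against 75.1 ± 4.67 FPKM in controls (SD, n = 3 each). Each sum at 12 h and 48 h was below each control sum. The start window of Grm2 (chr9:106656060-106656359, minus strand, GRCm38.p6), given for its call in every alternative at 12 h, held none of the 3 motifs searched.
Grm2: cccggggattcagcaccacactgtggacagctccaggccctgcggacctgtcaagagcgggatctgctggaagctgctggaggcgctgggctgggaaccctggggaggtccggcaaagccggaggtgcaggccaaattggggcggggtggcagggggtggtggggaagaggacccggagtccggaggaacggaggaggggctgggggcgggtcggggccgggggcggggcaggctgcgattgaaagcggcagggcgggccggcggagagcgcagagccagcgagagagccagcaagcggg

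**Figure D4:**
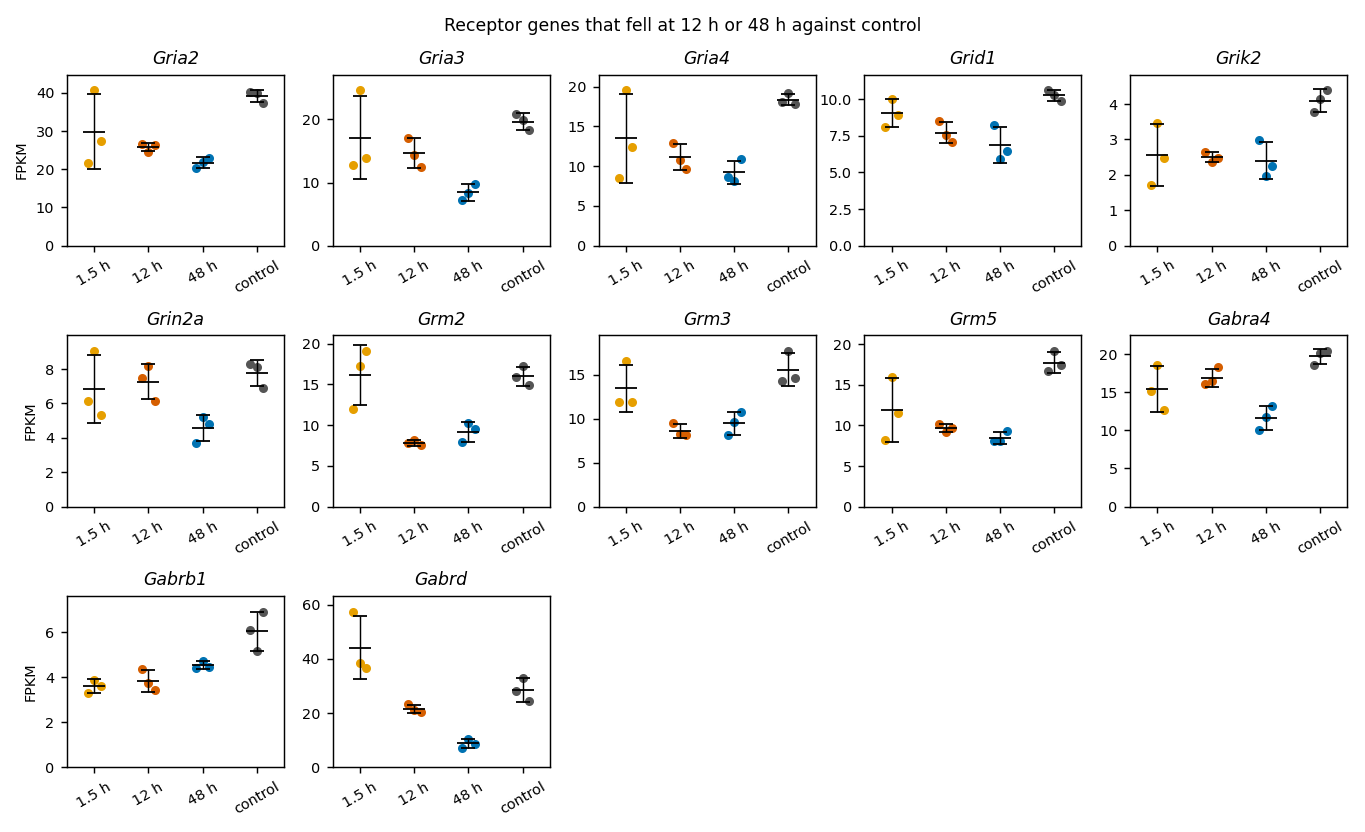
FPKM (vertical axis, linear from 0) in each library for 12 of the 13 receptor genes that fell at 12 h or 48 h; points are libraries, the long horizontal lines group means and the bars ± SD (n = 3), and groups run 1.5 h, 12 h, 48 h and control. In FPKM as deposited, Gabrd is high at 1.5 h and lowest at 48 h, and the Grm2 libraries at 12 h and 48 h lie below all controls.

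GABA-A receptors combine α, β and a γ or δ subunit. Of 13 tested, 2 fell at 12 h, Gabrb1 among them, and Gabra4 and Gabrd fell at 48 h. Gabrd (ENSMUSG00000029054, chromosome 4, 155384980 to 155398112, minus strand) encodes the δ subunit of receptors outside the synapse that carry tonic inhibition, in the forebrain mostly with α4. It had 57.4, 38.6 and 36.6 FPKM at 1.5 h, 23.2, 21.01 and 20.4 FPKM at 12 h and 7.33, 10.5 and 8.59 FPKM at 48 h, against 27.99, 33.1 and 24.5 FPKM in controls. In FPKM as deposited, the order over time was not one way. The 1.5 h libraries were all above the controls, at 0.60 ± 0.19 (adjusted p = 0.0944), not past the threshold. The 12 h and 48 h libraries were all below, at -0.38 ± 0.19 (adjusted p = 0.181) and -1.59 ± 0.19 (adjusted p = 3.10e-04). Total FPKM was 588639 and 425323 in 1.5 h libraries 1 and 3 and 286932 in library 2. In controls it was 261036 to 284774. The part of these totals in the 1.5 h level of Gabrd was not tested. The 48 h difference was kept in every alternative and corresponds to 0.332 times the control level on that scale. Gabra4 (ENSMUSG00000029211, chromosome 5, 71569749 to 71658308, minus strand), encoding α4, had 15.1, 18.6 and 12.6 FPKM at 1.5 h, 16.03, 16.5 and 18.3 FPKM at 12 h and 9.99, 11.8 and 13.2 FPKM at 48 h, against 18.6, 20.2 and 20.4 FPKM in controls. It lay below all controls at 12 h, where the difference was -0.21 ± 0.15 (adjusted p = 0.349), and more so at 48 h, at -0.72 ± 0.15 (adjusted p = 0.00852). The 48 h call was kept with any 1 library left out and lost with equal total FPKM.

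Gabrb1 (ENSMUSG00000029212, chromosome 5, 71658113 to 72149037, plus strand), encoding β1, had 3.29, 3.89 and 3.63 FPKM at 1.5 h, 4.38, 3.72 and 3.42 FPKM at 12 h and 4.41, 4.73 and 4.46 FPKM at 48 h, against 6.07, 5.17 and 6.90 FPKM in controls. All treated libraries at each time were below the lowest control, with -0.61 ± 0.12 (adjusted p = 0.0544) at 1.5 h, -0.54 ± 0.12 (adjusted p = 0.00935) at 12 h and -0.34 ± 0.12 (adjusted p = 0.0927) at 48 h, and the 12 h call was kept with any 1 library left out and lost with equal total FPKM (adjusted p = 0.0639). Gabrb2, which encodes the β2 subunit of the most common receptor of the adult brain, did not pass. Gabrb2 had 4.76, 22.7 and 8.64 FPKM at 1.5 h, 9.52, 10.9 and 9.27 FPKM at 12 h and 10.5, 8.77 and 9.19 FPKM at 48 h, against 21.5, 25.04 and 18.8 FPKM in controls. The fitted difference was -1.06 ± 0.38 (adjusted p = 0.0712) and -1.11 ± 0.38 (adjusted p = 0.0824), at 12 h and 48 h, with no overlap with the controls. At 1.5 h library 2 was within the control range while the other 2 were far below.

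The other GABA-A genes described here passed at no time against control. Gabra2 and Gabra3 differed by -0.36 and -0.60 at 48 h, with all 48 h libraries below the controls. Gabra5, encoding the α5 subunit of hippocampal tonic receptors, had 39.3, 10.6 and 27.2 FPKM at 1.5 h, 12.1, 13.3 and 10.8 FPKM at 12 h and 7.66, 16.7 and 16.3 FPKM at 48 h, against 19.6, 12.5 and 18.8 FPKM in controls, so the spread at 1.5 h covered the control range. The gene body of Gabra5 overlaps that of a gene on the other strand. Reads in any bases counted for both cannot be assigned without strand. GABA-A genes lie in clusters, and members of one cluster had different calls. On chromosome 5 Gabrb1 passed at 12 h, Gabra4 at 48 h and Gabra2 and Gabrg1 at neither. Gabra4 and Gabrb1 are transcribed away from each other and their gene bodies overlap by 196 bases at the starts. Their start windows are shown because the pair passed the test at different times (GRCm38.p6, Gabra4 at chr5:71658259-71658558, minus strand, and the first of the Gabrb1 windows at chr5:71657671-71657970, plus strand). These windows do not overlap, and neither held a searched motif. The Gabrb1 window lies around a RefSeq start and ends before 71658113, the gene start used for the overlap of 196 bases.
Gabra4: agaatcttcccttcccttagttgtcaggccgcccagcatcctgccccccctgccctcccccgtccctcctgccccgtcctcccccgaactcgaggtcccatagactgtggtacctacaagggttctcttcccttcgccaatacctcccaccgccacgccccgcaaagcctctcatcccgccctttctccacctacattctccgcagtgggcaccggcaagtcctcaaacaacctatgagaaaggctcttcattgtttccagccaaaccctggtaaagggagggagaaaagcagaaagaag
Gabrb1: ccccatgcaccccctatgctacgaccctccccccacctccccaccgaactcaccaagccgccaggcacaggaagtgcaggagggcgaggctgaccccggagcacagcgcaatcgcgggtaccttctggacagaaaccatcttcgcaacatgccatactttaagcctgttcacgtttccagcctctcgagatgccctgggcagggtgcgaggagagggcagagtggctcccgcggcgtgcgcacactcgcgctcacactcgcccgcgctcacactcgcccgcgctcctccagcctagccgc
Reads in the shared bases cannot be assigned without strand. The summed GABA-A level was 235 ± 30.5 FPKM at 1.5 h, 176 ± 7.65 FPKM at 12 h and 161 ± 23.01 FPKM at 48 h, against 250.3 ± 17.1 FPKM in controls (SD, n = 3 each).

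GABA-B receptors are obligate pairs of Gabbr1, which binds GABA, and Gabbr2, which couples to the G protein. Neither passed at any time. Gabbr1 had 95.6, 106 and 88.8 FPKM at 1.5 h, 84.8, 82.3 and 76.5 FPKM at 12 h and 70.2, 77.6 and 79.5 FPKM at 48 h, against 88.8, 90.2 and 94.2 FPKM in controls, the highest level of any receptor gene. Its differences were 0.08 ± 0.12 (adjusted p = 0.654), -0.16 ± 0.12 (adjusted p = 0.395) and -0.26 ± 0.12 (adjusted p = 0.204) at 1.5, 12 and 48 h, with all 12 h and 48 h libraries below the controls. Gabbr2 differed by -0.05 ± 0.26 (adjusted p = 0.918) at 12 h and -0.28 ± 0.26 (adjusted p = 0.552) at 48 h and its groups overlapped. A missed threshold with 3 libraries a group does not show that these levels were equal.

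The 8 genes not tested were Grin3b, Grm6, Gabra6, Gabre, Gabrp, Gabrq, Gabrr1 and Gabrr3. Gabra6, a marker of cerebellar granule cells, was at 0 in 11 of 12 libraries with 1 read in all, where 3 reads would be 0.0642 to 0.0992 FPKM. Grm6, a retinal receptor, had 5 reads in all. Grin3b reached 0.658 FPKM, Gabrq 0.759 FPKM and Gabre 0.507 FPKM in their highest libraries. No difference is reported for these genes.

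The 48 h group was also tested directly against the 12 h group, a contrast without the controls. Here 5 of 40 receptor genes fell and 1 rose, where 15.6% of all genes changed (9.73% fell and 5.88% rose), so 12.5% falling and 9.73% are of like size. Gabrd was lower at 48 h by 1.21 ± 0.19 (adjusted p = 0.00164), with no overlap. Grin2c (ENSMUSG00000020734, chromosome 11, 115249169 to 115267243, minus strand), encoding GluN2C, had 7.49, 12.2 and 10.3 FPKM at 1.5 h, 15.8, 12.9 and 13.6 FPKM at 12 h and 8.32, 5.04 and 5.94 FPKM at 48 h, against 9.87, 8.47 and 10.8 FPKM in controls. Its 12 h libraries were all above the controls, at 0.50 ± 0.19 (adjusted p = 0.0943), and its 48 h libraries all below, at -0.54 ± 0.19 (adjusted p = 0.0949), and only the direct contrast passed, at -1.04 ± 0.19 (adjusted p = 0.00452). Gabrg1 (ENSMUSG00000001260, chromosome 5, 70751047 to 70842617, minus strand), encoding γ1, had 1.52, 1.49 and 1.58 FPKM at 1.5 h, 2.22, 2.40 and 2.26 FPKM at 12 h and 1.71, 0.840 and 1.49 FPKM at 48 h, against 1.85, 1.95 and 2.68 FPKM in controls and differed by -0.51 ± 0.15 (adjusted p = 0.0428). Gria3 differed by -0.73 ± 0.22 (adjusted p = 0.0437) and Gabra4 by -0.51 ± 0.15 (adjusted p = 0.0385). With any 1 library of the 2 groups left out the count was 2 to 4. The calls of Gabrd and Grin2c were kept each time. Those of Gria3 (adjusted p = 0.0580 to 0.152), Gabra4 (0.0774 to 0.122) and Gabrg1 (0.0711 to 0.146) were each lost in at least 5 of these 6 fits.

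**Figure D5:**
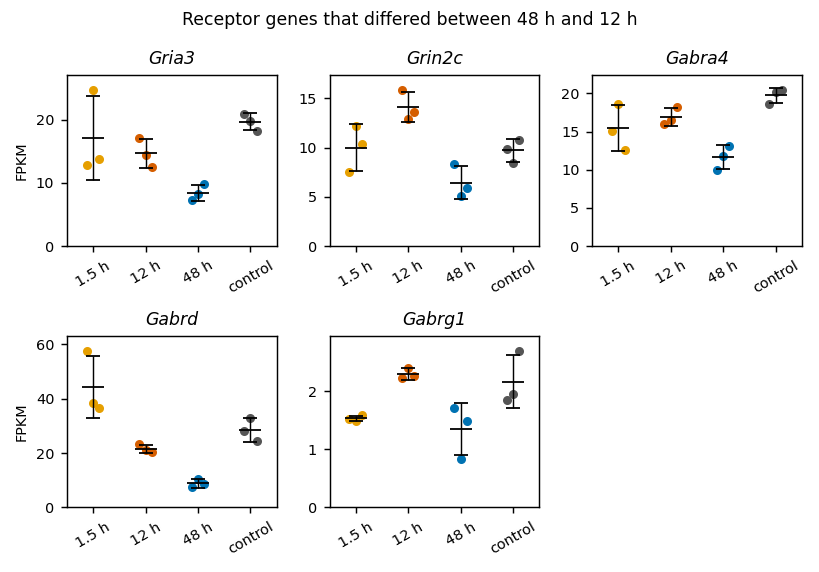
FPKM by library (vertical axis, from 0) for 5 of the 6 receptor genes that differed between 48 h and 12 h, in the order 1.5 h, 12 h, 48 h and control, with group means and bars of ± SD (n = 3). The 48 h points of Gabrd and Grin2c lie below every 12 h point.

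Genes that assemble, anchor or feed these receptors were counted from lists. For each list, the share over all genes tested was 7.90% fallen and 13.3% risen at 12 h. At 48 h it was 5.01% fallen and 7.50% risen. Of 15 AMPA and kainate auxiliary subunits, which set trafficking and gating, 2 fell and none rose at 12 h, and 4 fell and none rose at 48 h (median differences -0.25 and -0.26). Those of 12 h were Shisa9, at -0.66 ± 0.14 (adjusted p = 0.00778), and Cnih3, at -0.76 ± 0.20 (adjusted p = 0.0185). Those of 48 h, named after their values were seen, were Cacng3 (-1.58 ± 0.16), Cacng7 (-0.39 ± 0.11), Shisa7 (-0.99 ± 0.18) and Neto1 (-0.67 ± 0.19). Of 23 excitatory postsynaptic scaffold genes, Nptx2 rose at 1.5 h, 3 rose and 1 fell at 12 h, and 1 rose and 4 fell at 48 h. Their median differences were 0.03 at 12 h and -0.46 at 48 h, where those of the receptor genes were -0.25 and -0.44. Nptx2, a secreted pentraxin that clusters AMPA receptors, averaged 72.1, 336 and 168 FPKM at 1.5, 12 and 48 h, against 16.3 FPKM in controls. It rose by 2.08 ± 0.23 (adjusted p = 0.00429), 4.29 ± 0.23 (adjusted p = 1.46e-06) and 3.24 ± 0.23 (adjusted p = 8.85e-06), at 1.5, 12 and 48 h, while no AMPA gene rose at any time. Homer1, the partner of Grm5, averaged 28.9, 74.02 and 24.5 FPKM at 1.5, 12 and 48 h, against 19.5 FPKM in controls and rose at 12 h by 1.87 ± 0.30 (adjusted p = 0.00130). Gene-level values do not separate its short activity-induced isoform from the long ones. Dlgap4 rose at 12 h by 0.51 ± 0.15 (adjusted p = 0.0302) and Homer2 fell at 12 h, at -0.40 ± 0.12 (adjusted p = 0.0345). At 48 h Homer2 (-0.82 ± 0.12), Camk2a (-1.39 ± 0.28) and Dlg4, which encodes the main scaffold protein of excitatory synapses (-0.62 ± 0.13), named after their values were seen, were among those that fell.

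Of 16 GABA receptor partners, 3 rose and 1 fell at 12 h and 3 fell at 48 h (median differences 0.15 and -0.25). Of all genes 21.2% changed at 12 h and 12.5% at 48 h. Gphn, encoding gephyrin, the scaffold of inhibitory synapses, passed at no time, with 16.8, 19.1 and 17.8 FPKM at 1.5, 12 and 48 h, against 17.3 FPKM in controls. Slitrk3, an adhesion protein of inhibitory synapses, fell at 12 h, at -1.12 ± 0.13 (adjusted p = 1.98e-04), and at 48 h, at -0.81 ± 0.13 (adjusted p = 0.00249). Trak1, at 0.89 ± 0.18 (adjusted p = 0.00491), Plcl1, at 0.64 ± 0.15 (adjusted p = 0.0103), and Iqsec3, at 0.89 ± 0.27 (adjusted p = 0.0362), rose at 12 h. Kctd16, an auxiliary subunit of GABA-B receptors, fell at 48 h by 0.89 ± 0.19 and was named after its value was seen. Of 22 genes of transmitter synthesis and transport none passed at 12 h and 3 fell at 48 h, among them glutamine synthetase Glul (-0.86 ± 0.18) and the chloride exporter Slc12a5 (-0.85 ± 0.22), likewise named after their values were seen. Gad1, which makes GABA, averaged 39.7, 65.4 and 43.2 FPKM at 1.5, 12 and 48 h, against 45.03 FPKM in controls, and the vesicular glutamate transporter Slc17a7 338, 221 and 266 FPKM at 1.5, 12 and 48 h, against 240.2 FPKM in controls. Neither passed.

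Cell type markers moved at the same times, when 21.2% (12 h) and 12.5% (48 h) of all genes changed. Of 15 neuron markers none fell at 12 h or 48 h and 3 rose at 12 h, with summed levels of 1996 to 2091 FPKM at 12 h and 1554 to 2161 FPKM at 48 h, against 1937 to 2049 FPKM in controls. Their median differences were -0.10 at 12 h and -0.21 at 48 h. The neuronal nuclear gene Rbfox3 averaged 53.9, 54.5 and 36.3 FPKM at 1.5, 12 and 48 h, against 52.5 FPKM in controls and passed at no time. Of 12 striatum markers 1 rose and 2 fell at 12 h and 5 fell at 48 h (median -1.31), with sums of 155 to 363 FPKM at 48 h, against 295 to 627 FPKM in controls. Of 12 markers of excitatory neurons of cortex and hippocampus 1 rose and 2 fell at 12 h and 1 fell at 48 h (median -0.56), with sums of 473 to 1111 FPKM at 48 h, against 982 to 1463 FPKM in controls. None of 9 thalamus markers passed at any time against control (median 0.22 at 48 h). Among 10 interneuron markers none passed at 12 h, and 1 rose and 1 fell at 48 h (median -0.02). Of 6 cerebellar granule cell markers tested, out of 10, 1 fell at 12 h and 1 rose and 2 fell at 48 h. Microglia markers, of which 2 rose and 4 fell at 12 h and 10 of 12 rose at 48 h, summed to 619 to 707 FPKM at 48 h, against 154 to 170.3 FPKM in controls. Of 12 astrocyte markers 4 rose at 12 h, and 4 rose and 2 fell at 48 h. Of 12 oligodendrocyte lineage markers 4 rose at 12 h and 1 at 48 h, and of 12 endothelial markers 5 rose and 2 fell at 12 h and 1 rose at 48 h. No marker list had a member that passed at 1.5 h. The part of the regions sampled and of the cell mixture in the receptor differences was not tested.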

How the data were processed

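RNA of mouse brain was sequenced in 12 libraries prepared by Illumina protocols per the labels, 3 in each of 4 groups. The deposited table gives FPKM per gene, computed by the authors. The submitters' processing notes name Bowtie 0.12.2 and mm8, but the positions of all 48 receptor genes are those of GRCm38 in GENCODE release 21 for mouse (98.3% of the 54409 shared genes match), so positions are given in GRCm38. Strand use and RNA selection are not given in the sources used here. The column of 1 of the 12 h libraries carries another number than any title and was used as an unnumbered 12 h library.

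From these values log2(FPKM + 1) was taken, genes over 0.5 FPKM in 3 or more libraries were kept, and 1 limma 3.58.1 fit with a mean-variance trend (R 4.3.3, 8 residual degrees of freedom) covered all 12 libraries. FPKM are not counts, so no count model was used. Reads recovered from the FPKM steps (whole within 0.05 reads) describe depth only. The receptor genes, the gene lists and the tests were chosen with earlier results of these data known. The rule for genes given by library was a passed test against control at any time, plus major subunits (Gria1, Gria2, Grin1, Grin2a, Grin2b, Gabrb2 and Gabbr1). Gabra5, Grin2c and Gabrg1 were added after their values were seen. From the lists of receptor partners up to 3 genes that rose and 3 that fell at 12 h were named, and other called genes of these lists were picked with their values in view. The rule also took genes of the cell marker lists, which are given here as counts. Some genes counted in the totals are not reported here by name. The script was tested on simulated data. Alternatives were a pseudocount of 0.1, no filter, only 2 groups in the fit, a length-trend correction, quantile normalization, equal total FPKM and a replicate block. Each library of the 2 groups compared was also left out in turn, so single 1.5 h libraries were left out for the 1.5 h contrast only. A further run left out 1.5 h libraries 1 and 3 together. Numbers shared by libraries of different groups did not pair them.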

Additional observations from a re-analysis of the deposited data

Results flagged for a closer look

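In the direct test of 48 h against 12 h, 5 of 40 receptor genes fell and 1 rose (limma, Benjamini-Hochberg adjusted over 17664 genes). Over all genes, 9.73% fell and 5.88% rose. The 5 that fell are given here. Gabrd differed by -1.21 ± 0.19 (adjusted p = 0.00164) and Grin2c by -1.04 ± 0.19 (adjusted p = 0.00452). Gria3 differed by -0.73 ± 0.22 (adjusted p = 0.0437), Gabra4 by -0.51 ± 0.15 (adjusted p = 0.0385) and Gabrg1 by -0.51 ± 0.15 (adjusted p = 0.0428). In all 5 the 48 h and 12 h libraries did not overlap. With 1 library left out, the calls of Gria3, Gabra4 and Gabrg1 were kept in 0, 1 and 1 of 6 fits. With equal total FPKM only the call of Gabrd was kept, and with the replicate number as a block none was.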

How the results depend on the processing

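Each alternative was run on the counts of receptor genes changed and on 24 calls of single receptor genes. All 336 differences kept their direction; 220 kept the call and 116 lost it. The count at 1.5 h, 0 as reported, was 1 with a pseudocount of 0.1 and 0 to 22 with 1 library left out. The count at 12 h, 7 as reported, was 6 with a pseudocount of 0.1, 5 without a filter, 16 with 2 groups in the fit, 12 with the length trend corrected, 12 with quantile normalization, 3 with equal total FPKM, 15 without 1.5 h libraries 1 and 3 and 5 with any 1 library left out. The count at 48 h, 11 as reported, was in that order 10, 6, 17, 10, 12, 1, 22 and 4 to 10. The count of 48 h against 12 h, 6 as reported, was 6, 2, 5, 6, 4, 1, 10 and 2 to 4. Over all 17664 genes the number changed also moved with the setting, from 3737 at 12 h and 2209 at 48 h as reported. It was 7279 and 3789 with 2 groups in the fit and 4430 and 2646 with the length trend corrected. With quantile normalization it was 4606 and 2685, and with equal total FPKM 2698 and 1478. Without 1.5 h libraries 1 and 3 it rose at both times. A moved receptor count alone is therefore no result about receptor genes. Equal total FPKM moved the median of all genes at 1.5 h to -0.34. Apart from the smaller fits, the cause was not tested. The filter was on FPKM and not on reads: the 8 genes it left out had 1 (Gabra6) to 298 (Gabrq) reads in all 12 libraries.

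With the replicate number as a block, which dropped the unnumbered 12 h library, the counts were 0 at 1.5 h, 2 at 12 h, 2 at 48 h and 0 for 48 h against 12 h. The calls of Gria2, Grik2, Grm3, Grm5 and Gabrb1 at 12 h and all but those of Grm2 and Gabrd at 48 h were lost. The numbers were not found to pair the libraries: over 11 pairs with the same number, deviations from the group means correlated at -0.264 to 0.156 (median -0.00351), and 1 of 11 libraries correlated best with its own number.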
